A study of Mus musculus with 50 samples.

Results

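The 10 genes described here carry out salt and water handling in the distal nephron, the part of the kidney tubule that follows the bend of the loop of Henle. They were chosen by name as the rows for Umod, Slc12a1, Kcnj1, Slc12a3, Calb1, Scnn1a, Scnn1b, Scnn1g, Aqp2 and Aqp3, and all 10 were present among the 24984 genes of the count tables. Their RNA levels were compared between young and old kidney and between DMSO and 3C kidney, with liver as a contrast tissue.

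The distal nephron reclaims the last of the filtered salt and water in consecutive segments. In the thick ascending limb the cotransporter NKCC2 (Slc12a1) takes up sodium, potassium and chloride, the channel ROMK (Kcnj1) returns potassium to the lumen, and uromodulin (Umod) is secreted into the urine. In the distal convoluted tubule the thiazide-sensitive cotransporter NCC (Slc12a3) takes up sodium and chloride, and calbindin-D28K (Calb1) carries calcium through the cells of this and the connecting tubule. In the connecting tubule and collecting duct, aldosterone and vasopressin act on the epithelial sodium channel ENaC, built of alpha, beta and gamma subunits (Scnn1a, Scnn1b, Scnn1g), and on the water channels AQP2 at the luminal membrane and AQP3 at the basolateral membrane.

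All groups were C57BL/6 mice. The study's methods describe the untreated mice as female, and they do not describe the mice with DMSO and 3C. Untreated young mice were 2.5 months old and untreated old mice 23 to 25 months old, and kidney and liver of each age gave 4 RNA-seq and 3 ATAC-seq libraries per group. A second set of mice aged 20 to 21 months gave 4 kidney and 4 liver RNA-seq libraries with DMSO and 4 of each with 3C. What 3C is, its dose and its duration are not given in the sources used here, and this set holds no young mice and no mice without DMSO or 3C. The labels do not say whether each library came from a separate mouse, so the p-values measure the spread between these libraries.

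The RNA-seq libraries held 14.2 to 43.7 M counts (mega counts) in genes. Levels are given as CPM, a gene's counts per mega counts of its library, after TMM scaling, which was done separately for the untreated and the DMSO and 3C series and for each tissue. Old kidney replicate 2 stood apart: the summed level of 8 hepatocyte markers was 3557 CPM there and 98.5 to 208 CPM in the other kidney libraries, so the called members and the called list genes named are also given without it. In the liver libraries the same sum was 76778 to 206657 CPM. In old kidney all 7 macrophage markers and all 6 B and plasma cell markers were called higher than in young kidney, with summed levels of 667 to 1379 CPM against 136 to 170 CPM for the macrophage list and 354 to 521 CPM against 5.73 to 11.8 CPM for the B and plasma cell list. Of the proximal tubule markers 3 of 10 were called lower, with sums of 10279 to 11875 CPM in old and 14502 to 16276 CPM in young kidney, and of the injured tubule markers 4 of 5 were called higher. The part of these shifts in the results below was not tested.

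In GRCm38 the 10 genes lie on 7 chromosomes. Calb1 occupies chr4:15881264-15908064 (+), and Aqp3 lies on the same chromosome at chr4:41092722-41098183 (-). Scnn1g at chr7:121734479-121768475 (+) and Scnn1b at chr7:121865038-121918514 (+) are neighbours on one strand, 96562 bp apart, and Umod lies at chr7:119462711-119479282 (-). Aqp2 at chr15:99579055-99584547 (+) is followed by Aqp5 after 6234 bp. No exon of a member other than Umod overlaps another annotated gene.

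Umod was the most abundant of the 10 genes in every kidney group. On the scale of mean CPM per kilobase of exon in young kidney, Umod reached 2497 ± 154 (SD, n = 4), followed by Slc12a1 at 326 ± 52.9, Aqp2 at 224 ± 61.3, Calb1 at 178 ± 29.4 and Slc12a3 at 169 ± 12.9. Kcnj1 at 121 ± 8.98, Aqp3 at 70.2 ± 7.93, Scnn1a at 35.9 ± 2.04, Scnn1b at 27.5 ± 3.78 and Scnn1g at 18.6 ± 1.81 followed. The library ranges of Slc12a1 and Aqp2, of Aqp2 and Calb1, and of Calb1 and Slc12a3 overlapped, so these neighbours in the order did not differ beyond their spread. The 3 ENaC subunits were the lowest in each group, in the order alpha, beta, gamma, and their ranges stayed apart. In old kidney Calb1 stood at 86.5 ± 24.3 CPM per kilobase and overlapped Kcnj1 at 101 ± 3.22 above it and Aqp3 at 49.7 ± 9.19 below it.

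**Figure D1:**
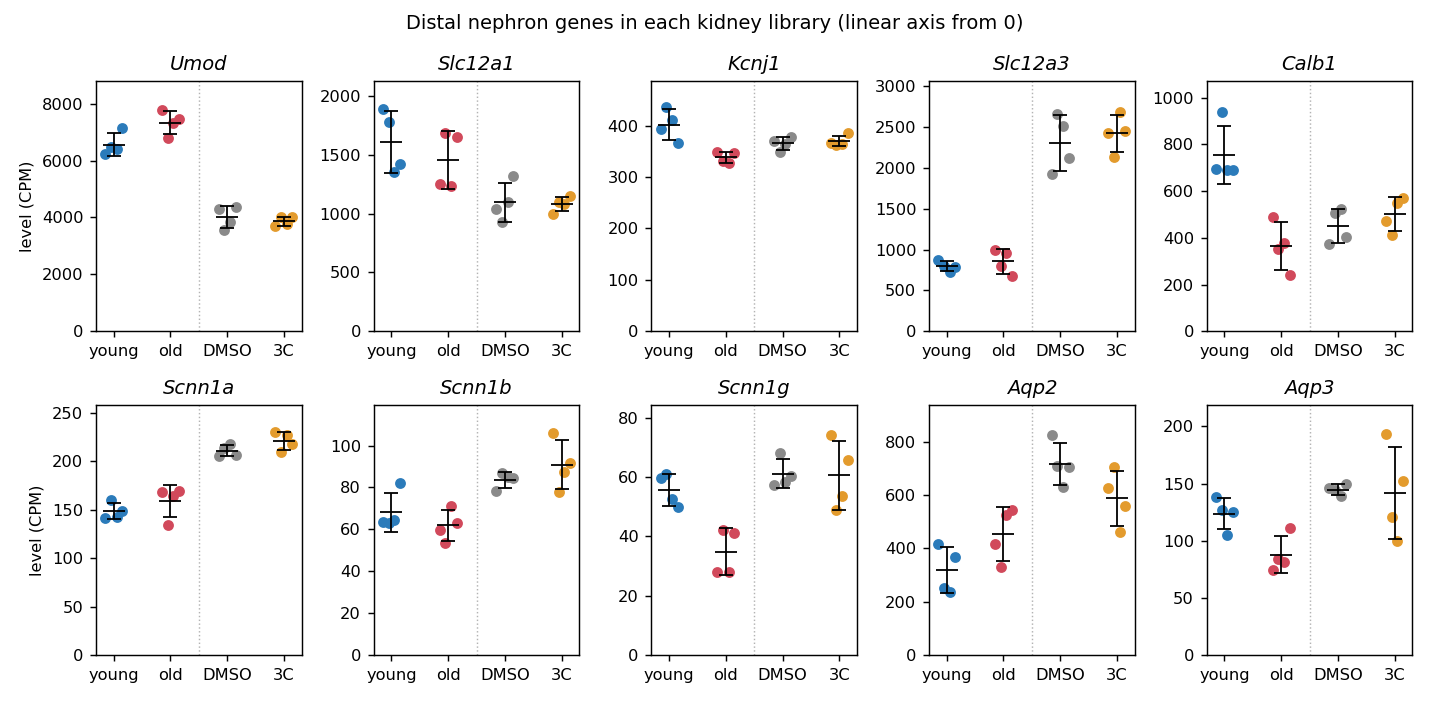
Level in CPM (vertical axis, linear from 0) of each of the 10 genes in each kidney library, by group. Points are libraries, and the black mark and bars are the mean and SD of 4 libraries. Calb1 lies at 690 to 939 CPM in young and 239 to 489 CPM in old kidney. The dotted line separates the untreated series from the DMSO and 3C series, which were scaled separately.

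The first question was which of these genes differ with age in kidney. Calb1 and Scnn1g were lower in old kidney, and no gene of the 10 was called higher. Calb1 fell to about 0.484 of its young level and Scnn1g to 0.625. Calls rest on edgeR's quasi-likelihood test with a Benjamini-Hochberg adjusted p under 0.05 over the 14495 genes tested. In that comparison 11.5% of all genes were called, 8.15% higher and 3.36% lower, against 0 higher and 2 lower of the 10 genes. The median log2 fold change was -0.14 over the 10 genes and 0.02 over all genes tested. In a bulk tissue, fewer cells of a segment and less RNA per cell cannot be told apart.

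In the thick ascending limb, none of the genes for the uptake machinery was called. Umod was 6219, 6464, 6412 and 7144 CPM in the young and 7784, 6787, 7305 and 7468 CPM in the old libraries. The ranges overlapped, and the log2 fold change of 0.16 (SE 0.11, edgeR adjusted p = 0.350) had a 95% interval from -0.09 to 0.41. Slc12a1 ranged from 1352 to 1885 CPM in young and from 1236 to 1685 CPM in old kidney, with a log2 fold change of -0.14 (interval -0.50 to 0.21). Kcnj1 was 393, 437, 411 and 366 CPM in young and 349, 331, 327 and 346 CPM in old kidney. Each old library was therefore below each young library for Kcnj1, which was so, in one direction or the other, for 17.8% of all genes tested and for 3 of the 10 genes. The Kcnj1 difference was small, with a log2 fold change of -0.25 (SE 0.10, edgeR adjusted p = 0.129), and it was called with DESeq2 (adjusted p = 0.0260).

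In the distal convoluted and connecting tubule Calb1 was called lower with age and Slc12a3 was not called. Slc12a3 ranged from 727 to 875 CPM in young and from 673 to 992 CPM in old kidney, with a log2 fold change of 0.10 (SE 0.14, edgeR adjusted p = 0.648, interval -0.21 to 0.42). Calb1 was 693, 939, 692 and 690 CPM in young and 489, 354, 378 and 239 CPM in old kidney. No old library reached the lowest young library, and young replicate 2 stood above the other young libraries. The Calb1 log2 fold change was -1.05 (SE 0.21, edgeR adjusted p = 0.0109), it was -1.03 without old kidney replicate 2 (edgeR adjusted p = 0.0142), and it stayed called when any other library was left out, with adjusted p up to 0.0393. It was the only gene of the 10 past the study's own added threshold of a fold change above 2 or below 0.5, which 6.08% of all genes passed. Calb1 fell short of that threshold without old kidney replicate 4 (log2 fold change -0.89) and without young kidney replicate 2 (-0.92).

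Of the ENaC subunits, Scnn1g was called lower with age, and Scnn1a and Scnn1b were not called. Scnn1a ranged from 142 to 160 CPM in young and from 134 to 169 CPM in old kidney, and its log2 fold change was 0.10 (SE 0.11, edgeR adjusted p = 0.578). Scnn1b ranged from 63.0 to 82.2 CPM in young and from 53.4 to 71.1 CPM in old kidney, with a log2 fold change of -0.14 (SE 0.13, edgeR adjusted p = 0.485). Scnn1g was 59.8, 61.0, 52.5 and 49.9 CPM in young and 27.9, 42.2, 27.9 and 41.1 CPM in old kidney. The groups did not overlap for Scnn1g, and old replicates 1 and 3 were the lowest. Its log2 fold change was -0.68 (SE 0.16, edgeR adjusted p = 0.0262), and -0.78 without old kidney replicate 2 (edgeR adjusted p = 0.0112). The Scnn1g call was lost on leaving out old replicate 1 (edgeR adjusted p = 0.0638), old replicate 3 (0.0508), young replicate 1 (0.0701), young replicate 2 (0.0851) or young replicate 3 (0.0584), with log2 fold changes between -0.72 and -0.59.

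The water channels lay on opposite sides of 0, and neither was called. Aqp2 was 415, 253, 237 and 368 CPM in young and 415, 331, 526 and 545 CPM in old kidney. The ranges overlapped, with young replicate 1 level with old replicate 1. The Aqp2 log2 fold change was 0.51 (SE 0.22, edgeR adjusted p = 0.149), and without old kidney replicate 2 it was 0.64 and called (edgeR adjusted p = 0.0477). Aqp3 was 138, 127, 105 and 125 CPM in young and 74.1, 84.1, 81.5 and 111 CPM in old kidney. Old replicate 4 was the single old library above the lowest young library. The Aqp3 log2 fold change of -0.50 (SE 0.14) had an edgeR adjusted p of 0.0523, just outside the threshold, and it was called with RLE size factors (0.0448), with DESeq2 (0.0116) and without old kidney replicate 4 (0.0235).

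**Figure D2:**
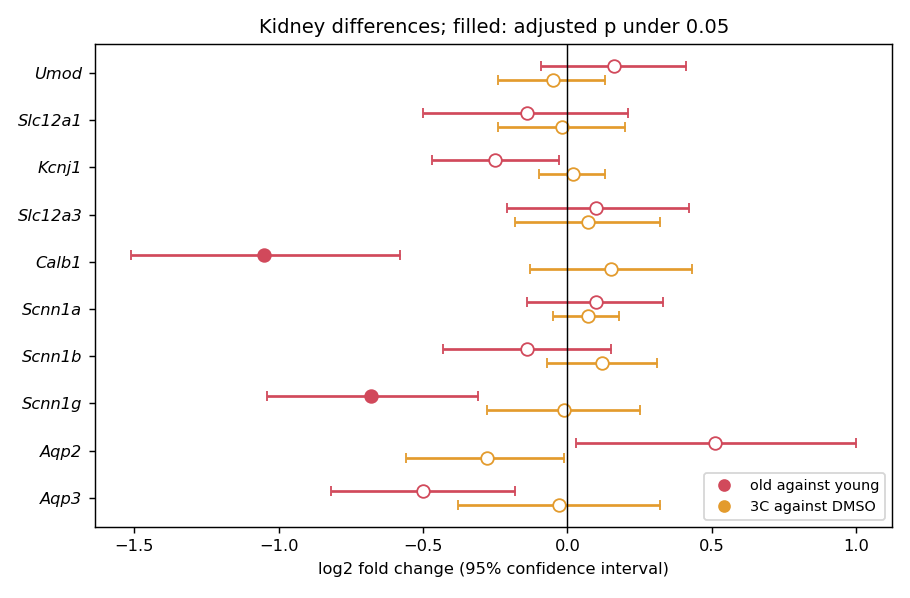
Log2 fold change (horizontal axis) of each gene in kidney, old against young and 3C against DMSO, with its 95% confidence interval. Filled points had an adjusted p under 0.05 in edgeR: Calb1 at -1.05 and Scnn1g at -0.68 with age. No point was filled for 3C.

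Ratios between genes of the same segment were computed after the values above had been seen, from the raw counts of each library, so that they do not depend on the scaling. There were 8 pairs in each kidney comparison, 16 in all. In old kidney the Slc12a3 count was 2.03, 2.24, 2.54 and 2.81 times the Calb1 count, against 1.26, 0.849, 1.05 and 1.13 times in young kidney. The mean log2 ratio was 0.09 ± 0.24 (SD) in young and 1.26 ± 0.21 in old kidney, a difference of 1.17. The Aqp2 count was 3.00, 1.99, 2.26 and 2.94 times the Aqp3 count in young and 5.60, 3.93, 6.45 and 4.90 times in old kidney, a difference of 1.03 in the mean log2 ratio. For Scnn1a to Scnn1g the mean log2 ratio was 1.42 ± 0.14 in young libraries and 2.21 ± 0.45 in old libraries, and for Umod to Kcnj1 it was 4.03 ± 0.18 and 4.44 ± 0.06. In these 4 pairs the groups did not overlap, which gave the smallest exact two-sided permutation p that 4 against 4 libraries allow, 0.0286, and an adjusted p of 0.114 over the 16 ratios, so none passed the correction. Without old kidney replicate 2 the differences were 1.20 for Slc12a3 to Calb1, 1.16 for Aqp2 to Aqp3, 0.98 for Scnn1a to Scnn1g and 0.43 for Umod to Kcnj1. The other 4 pairs overlapped with age, among them Slc12a1 to Kcnj1 at 1.99 ± 0.22 and 2.09 ± 0.25. The ratios share genes and are not independent of the levels described above. How often ratios of other gene pairs separate was not computed, so the count of 4 pairs cannot be set against a share.

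**Figure D3:**
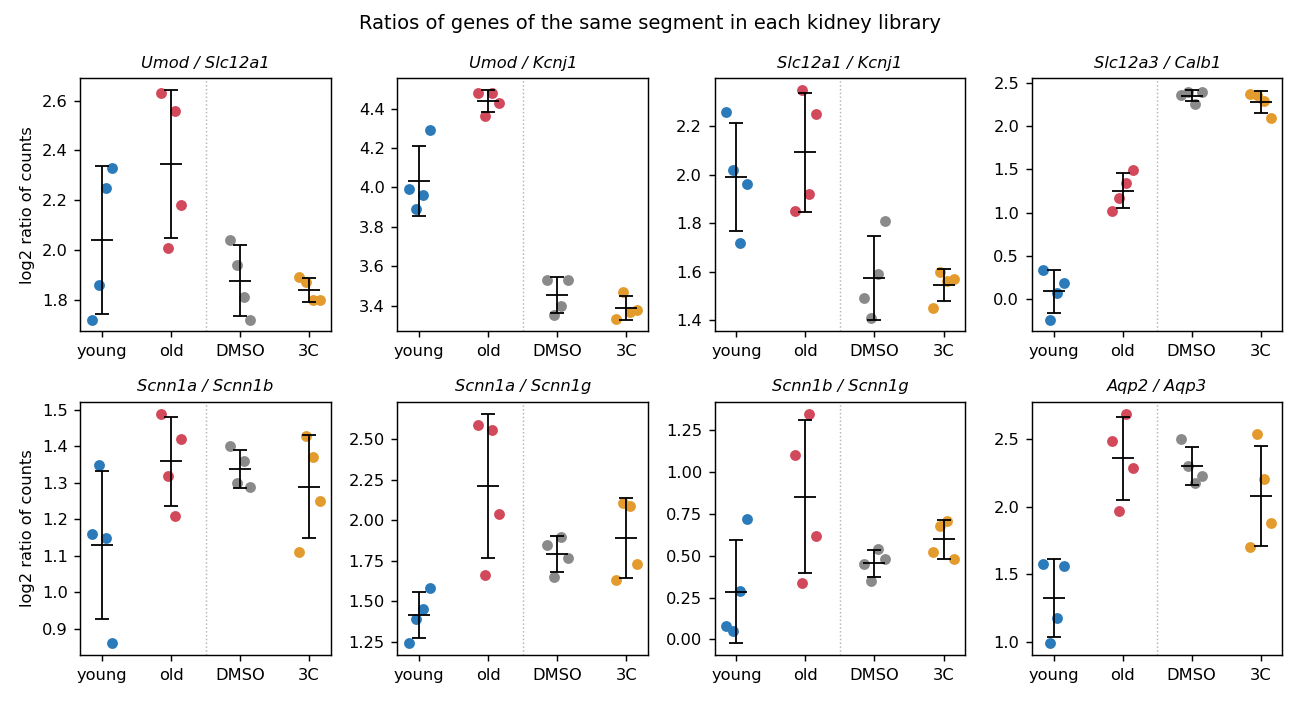
Log2 ratio of the raw counts (vertical axis, scale differs by panel) of 8 pairs of genes of the same segment in each kidney library. Points are libraries, and black marks and bars are the mean and SD of 4. The mean Slc12a3 to Calb1 ratio is 0.09 in young and 1.26 in old kidney, and the DMSO and 3C groups overlap in all 8 panels.

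The next question was whether 3C changed these genes in kidneys of mice aged 20 to 21 months. None of the 10 genes was called, and edgeR called 0 of 14974 genes (0% of the genes tested), with 1786 genes at an unadjusted p under 0.05. DESeq2 called 208 genes and none of the 10. Of the 10 genes, 5 had a log2 fold change above 0 and 5 below, with a median of 0.00. The smallest p was that of Aqp2, at 824, 710, 629 and 704 CPM with DMSO and 627, 706, 463 and 558 CPM with 3C. The ranges overlapped, and its log2 fold change of -0.28 (SE 0.12) had an edgeR adjusted p of 0.393 and a 95% interval from -0.56 to -0.01.

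For several genes the intervals of the 3C difference were narrow. Kcnj1 ranged from 349 to 377 CPM with DMSO and from 362 to 385 CPM with 3C, and its interval ran from -0.10 to 0.13 on the log2 scale. Scnn1a, at 206 to 218 CPM and 210 to 230 CPM, had an interval from -0.05 to 0.18. Umod had an interval from -0.24 to 0.13, with 3552 to 4365 CPM against 3696 to 4009 CPM. The spread among the 3C libraries was wider for Aqp3, at 193, 121, 100 and 152 CPM, against 146, 144, 139 and 150 CPM with DMSO, and its interval ran from -0.38 to 0.32. Calb1 and Scnn1g, the genes lower with age, had log2 fold changes of 0.15 (interval -0.13 to 0.43) and -0.01 (interval -0.28 to 0.25) with 3C. In all 8 ratios of genes of the same segment the DMSO and 3C libraries overlapped.

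Levels in this series were not those of the untreated series. Slc12a3 averaged 2306 ± 343 CPM (SD, n = 4) with DMSO and 855 ± 149 CPM in untreated old kidney, and Umod averaged 4013 ± 379 CPM and 7336 ± 416 CPM. The series were scaled separately and differ in age and treatment, and the share of reads outside genes was 17.0 to 18.8% in the DMSO kidneys and 12.4 to 12.8% in the untreated old kidneys. These differences cannot be told apart from one another, and no test was made across the series.

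Other genes of these segments were counted in lists by cell type. Of all genes tested with age, 8.15% were called higher and 3.36% lower. With age, 3 of 13 other thick ascending limb genes were called higher and 1 lower, with a list median log2 fold change of 0.17. Those named are Cldn19, a claudin of the tight junctions that pass magnesium and calcium, which rose by 0.49 (SE 0.11, edgeR adjusted p = 0.0206), Ptger3, a prostaglandin E2 receptor, which rose by 0.46 (SE 0.12, edgeR adjusted p = 0.0377), and Egf, the growth factor precursor made in the distal tubule, which fell from 2867 ± 197 to 1681 ± 215 CPM (log2 fold change -0.77, edgeR adjusted p = 0.00483). Of 13 other distal convoluted and connecting tubule genes none was called, although 10 lay below 0 and the list median was -0.28. The 6 genes of this list that move or bind calcium were named after their values were seen, and none was called. The entry channel Trpv5 had a log2 fold change of -0.76 (SE 0.23, edgeR adjusted p = 0.0584). The exchanger Slc8a1 had -0.89 (SE 0.30, edgeR adjusted p = 0.0842) and the small calcium-binding protein S100g -1.17 (SE 0.60, edgeR adjusted p = 0.215). The calcium pumps Atp2b1 and Atp2b4 had -0.28 (SE 0.19, edgeR adjusted p = 0.330) and -0.69 (SE 0.34, edgeR adjusted p = 0.201). Parvalbumin, Pvalb, had -0.44 (SE 0.45, edgeR adjusted p = 0.530). Without old kidney replicate 2, 4 of the 13 genes of this list were called lower, as were 12.2% of all genes in that fit. They were Trpv5, Slc8a1, Atp2b4 and the potassium channel subunit gene Kcnj16 (edgeR adjusted p = 0.0215, 0.0168, 0.0321 and 0.0495), and S100g (0.239), Atp2b1 (0.0743) and Pvalb (0.691) were not called.

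Collecting duct genes were counted by cell type. Of 14 principal cell genes, 1 was called higher and 3 lower, with a median of -0.04. Stc1, a secreted calcium and phosphate regulating hormone, rose by 1.06 on the log2 scale (SE 0.23, edgeR adjusted p = 0.0179), while the transcription factors Tfcp2l1 and Tfap2b fell by 0.98 and 0.52 on the log2 scale (edgeR adjusted p = 0.0326 and 0.0332). Of 14 intercalated cell genes, 7 were called lower and none higher, with a median of -0.40 and 13 below 0. Hmx2, a homeobox factor, fell from 13.7 ± 1.70 to 6.18 ± 1.87 CPM (edgeR adjusted p = 0.00883), and Insrr, an alkali-sensing receptor, fell from 34.3 ± 1.68 to 22.5 ± 2.67 CPM (edgeR adjusted p = 0.00969). Of 24 regulators of salt transport, 1 was called lower, the protease Tmprss2 at -0.34 (SE 0.09, edgeR adjusted p = 0.0447), and the list median was -0.20. That count of 1 in 24 is near the 3.36% of all genes called lower. The 9 called genes named here and in the paragraph above were also called without old kidney replicate 2, with edgeR adjusted p from 0.00609 for Tfcp2l1 to 0.0429 for Tmprss2. Against 3C, edgeR called 0 genes in every list, DESeq2 called 4 of the listed genes higher (Foxi1, Hmx2, Kcnj16 and Trpv5, named after their values were seen) where it called 0.439% of all genes with an adjusted p higher and 0.967% lower, and all 14 intercalated cell genes lay above 0 with a median of 0.25, without any passing the edgeR test. Markers of other cells in the same libraries were counted likewise. All 9 proximal tubule markers tested lay above 0 with 3C, with a median of 0.11 and sums of 12944 to 15608 CPM against 12545 to 13722 CPM with DMSO. All markers tested of macrophages (7, median -0.53), fibroblasts (6, -0.63), B and plasma cells (6, -1.03), T cells (5, -0.59), podocytes (5, -0.20), endothelial cells (6, -0.18) and urothelium (6, -0.40) lay below 0. Of the injured tubule markers 1 lay above and 4 below 0 (median -0.25), and of the hepatocyte markers 3 lay above and 3 below (median 0.01). The macrophage sums were 342 to 538 CPM with 3C and 557 to 622 CPM with DMSO, and the fibroblast sums 289 to 483 and 541 to 704 CPM. No marker in these lists was called by edgeR, and the part of these values in the 3C differences was not tested. Over the lists together 4 genes were called higher and 12 lower with age, and both counts moved with the library left out. Without old kidney replicate 2, 6 were called higher and 21 lower, where 11.5% of all genes were called higher and 12.2% lower. Without old replicate 1 there were 1 higher and 4 lower (6.90% and 1.49% of all genes), without old replicate 4 also 1 and 4 (4.88% and 0.985%), without young replicate 1 there were 2 and 6 (5.92% and 1.42%), and without young replicate 2 there were 1 and 3 (4.75% and 0.943%). Without old replicate 3, 2 were called higher (7.61%), and without young replicate 3, 0 were (4.85%).

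For 3 members, the genes whose levels followed them most closely over the 16 kidney libraries were listed, as deviations from each group's mean and among 10189 genes with a mean of at least 10 CPM. The closest to Umod were Stx2 (Pearson r = 0.90), P4ha1 (0.88) and Dgkz (0.83). For Slc12a3 they were Cox7a1 (0.87), Ankrd16 (0.85) and Chrna4 (0.84), and for Aqp2 they were Gpatch11 (0.90), Tcf7l2 (0.78) and Letm2 (0.78). No other member was among these. The labels do not say whether these libraries share a preparation, and the values were taken as the highest of many.

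Liver served as the contrast. All 10 genes were called higher in young kidney than in young liver, as were 35.1% of the 14057 genes tested. The genes were chosen as kidney tubule genes, and all but Scnn1a passed the filter there through their kidney counts alone. Their calls were therefore fixed in advance, and only that of Scnn1a was open to the test. Umod had 469438 counts in the 4 young kidney libraries and 0 in the 4 young liver libraries. With 3 counts over the liver group as the floor and totals as the scale, this makes Umod at least 189904-fold higher in kidney, and Slc12a1 at least 47542-fold, Slc12a3 at least 23215-fold, Calb1 at least 22287-fold, Kcnj1 at least 11711-fold, Aqp2 at least 9252-fold and Scnn1g at least 1636-fold higher. These bounds, like the intervals that follow, cover counting error only, and they depend on the scale. With the TMM scaling of that fit each bound and ratio given here is 2.12 times smaller, for example at least 89736-fold for Umod and at least 773-fold for Scnn1g. Scnn1b had 1 count in young liver and 4861 in young kidney, a ratio of 5899 with an exact 95% interval from 1058 to 233059. Aqp3 had 5 and 8979 counts, a ratio of 2179 (934 to 6714).

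Scnn1a was the exception, the single member measured in liver at a level that could be tested. It was 20.4, 18.4, 19.2 and 15.2 CPM in young liver and 12.2, 15.9, 13.7 and 17.5 CPM in old liver. The groups overlapped, and the log2 fold change with age was -0.30 (SE 0.18, edgeR adjusted p = 0.509), in a comparison in which 2.46% of genes were called. In young kidney the gene was 8.21 times its young liver level by share of total counts and 3.87 times by the TMM scaling of that fit (log2 fold change 1.95, SE 0.13, edgeR adjusted p = 5.78e-08). In the second series it was 56.5, 49.0, 68.8 and 45.3 CPM in liver with DMSO and 85.4, 56.9, 55.6 and 55.4 CPM with 3C, with a log2 fold change of 0.21 (SE 0.18, edgeR adjusted p = 1.0) where 0% of genes were called. In that comparison 436 of 13042 genes had an unadjusted p under 0.05 and DESeq2 called 7. Without 3C liver replicate 1 the Scnn1a log2 fold change there was 0.03. The age effect on Scnn1a in liver minus that in kidney was -0.36 (SE 0.20, edgeR interaction adjusted p = 0.454), and the same difference for 3C was 0.12 (SE 0.20, edgeR interaction adjusted p = 1.0).

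The other 9 members gave almost no counts in liver, with 0 to 4 counts in all 9 together in each untreated liver library. One library went against this. The 3C liver replicate 4 held 67 counts of Umod, 23 of Slc12a1 and 11 of Slc12a3, and its 9 members together stood at 0.0684% of their mean level in 3C kidney. The other libraries of the DMSO and 3C livers held 0 to 12 counts of the 9 genes, up to 0.00703% of the kidney level.

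ATAC-seq, which cuts accessible DNA, was read as peaks called in each library, and each gene's strongest peak within 1 kb of an annotated start was taken with its fold enrichment over the local background. The 10 genes fell into those with a promoter peak in all 6 kidney libraries, which were Umod, Slc12a1, Kcnj1, Scnn1a, Scnn1g and Aqp3, and those without. Over all genes with an annotated start 59.3% had a peak in every kidney library and 53.4% in every liver library. Calb1 had a peak in 3 of 3 young and 2 of 3 old kidney libraries, Scnn1b likewise in 3 and 2, and Aqp2 in 2 and 1. Slc12a3 had none in any kidney or liver library, although its RNA averaged 795 ± 60.8 CPM in young kidney. In liver only Scnn1g had a promoter peak in all 6 libraries.

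The upstream bases of 3 of these genes are printed to show how unlike their promoters are, with Scnn1g and Scnn1b as neighbours on one chromosome and Umod as the most abundant gene. Sequences are the 250 bases before the RefSeq start, on the gene's strand and GRCm38.p6. Scnn1g lies at chr7:121734229-121734478 (+), Scnn1b at chr7:121864788-121865037 (+) and Umod at chr7:119479263-119479512 (-). Capitals mark CpG dinucleotides in the Scnn1g and Scnn1b sequences and the letters GTTAAT, the core of a site for HNF1 factors, in the Umod sequence, which has no CpG.
Scnn1g: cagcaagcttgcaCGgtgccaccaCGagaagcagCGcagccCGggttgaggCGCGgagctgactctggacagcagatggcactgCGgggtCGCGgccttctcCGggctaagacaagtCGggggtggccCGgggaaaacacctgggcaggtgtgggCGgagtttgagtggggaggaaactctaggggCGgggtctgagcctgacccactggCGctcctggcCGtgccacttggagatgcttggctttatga
Scnn1b: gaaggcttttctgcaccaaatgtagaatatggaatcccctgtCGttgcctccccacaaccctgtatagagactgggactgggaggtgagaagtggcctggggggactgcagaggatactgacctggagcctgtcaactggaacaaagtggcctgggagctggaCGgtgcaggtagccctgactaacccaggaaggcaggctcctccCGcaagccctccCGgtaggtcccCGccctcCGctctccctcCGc
Umod: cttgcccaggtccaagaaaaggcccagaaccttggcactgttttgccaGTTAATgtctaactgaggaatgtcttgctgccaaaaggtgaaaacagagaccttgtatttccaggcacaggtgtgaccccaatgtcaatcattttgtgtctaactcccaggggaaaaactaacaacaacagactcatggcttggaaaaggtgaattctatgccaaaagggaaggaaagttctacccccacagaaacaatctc

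The Scnn1g window held 16 CpG dinucleotides and was 65.2% G and C, the Scnn1b window 7 and 60.8%, and the Umod window 0 and 45.2%. The median over 32851 promoters of the table was 6 CpG. RefSeq promoters were found for 8 of the 10 genes, all but Scnn1a and Calb1. The GC box GGGCGG, on either strand, occurred in the windows of 4 of these 8 genes (Slc12a3, Scnn1b, Scnn1g and Aqp3) and in 32.7% of all promoters, and the TATA box TATAAA in 2 (Slc12a3 and Aqp3) and in 12.4% of all. GTTAAT occurred in Umod alone and in 6.43% of all promoters, CCAAT in 4 of 8 and 33.8% of all. The AP-1 letters TGANTCA, for the factor family on which the study centres, occurred in none of the 8 windows and in 6.75% of all, which says only that these letters are not in these bases. In the 6 kidney libraries the Umod peak summits lay at positions -238 to -188 bp from the gene model's start, and GTTAAT began at -182 bp.

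The Scnn1g promoter peak was the strongest of the 10 genes in either tissue, and it was lower in old than in young libraries of both. In kidney its fold enrichment was 10.90, 12.67 and 10.59 in young and 7.84, 6.87 and 9.29 in old libraries. In liver it was 11.81, 13.97 and 15.21 in young and 8.0, 6.23 and 8.35 in old libraries. No old library reached a young library in either tissue, and the difference of the mean log2 values, old minus young, was -0.52 in kidney and -0.86 in liver, each at p = 0.1 in a two-sided exact permutation test, the smallest that 3 against 3 libraries can give. Every old library was below every young library for 8.60% of 12981 genes in kidney and 5.80% of 11682 genes in liver, and the median of this difference over those genes was 0.04 and 0.05. Whether the age difference at this promoter differs between the tissues was not tested. Scnn1g RNA had 0 counts in all 16 liver libraries. The summits lay at positions -214 to -183 bp from the start in kidney and -236 to -223 bp in liver, inside the bases printed above.

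Among the other members the strongest kidney promoter peak of Scnn1a was also lower in every old library, with a mean of 4.88 ± 0.15 (SD, n = 3) in young libraries and 4.04 ± 0.45 in old libraries (exact permutation p = 0.1). These values mix a pair of peaks, since the stronger was taken in each library. At the peak 109 to 164 bp before the first start the ages overlapped, with 4.35, 4.72 and 4.08 in young and 4.55, 2.71 and 3.65 in old kidney. At the peak 545 to 725 bp after it the old libraries, at 3.43, 3.80 and 3.77, were all below the young, at 5.03, 4.32 and 4.88. In the libraries where this peak was the stronger, its summit lay at positions -136 to -51 bp from another of the gene's 4 annotated starts. The peaks were separated after their values were seen, and no test was made of either. Umod (5.36 ± 0.96 and 4.48 ± 0.94), Kcnj1 (6.25 ± 1.03 and 5.63 ± 1.57), Slc12a1 (3.93 ± 0.43 and 3.59 ± 1.12) and Aqp3 (3.89 ± 1.01 and 3.30 ± 1.03) overlapped between ages. The strongest peak of Slc12a1 and of Aqp3 was likewise not at the same place in every library, with summits at -721 to 42 bp and -510 to 3 bp from the nearest start. The median difference of mean log2 values of the 6 genes was -0.26. The old kidney libraries had fewer peak intervals, 93072 to 108970 against 115836 to 128395 in young, and the part of this in the differences was not tested. Leaving out old kidney replicate 3 raised the number of these genes with every old library below every young library from 2 to 4. The share of all genes was not computed for that leave-out. Groups separate more easily with fewer libraries, so the rise cannot be read as a result about these genes.

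**Figure D4:**
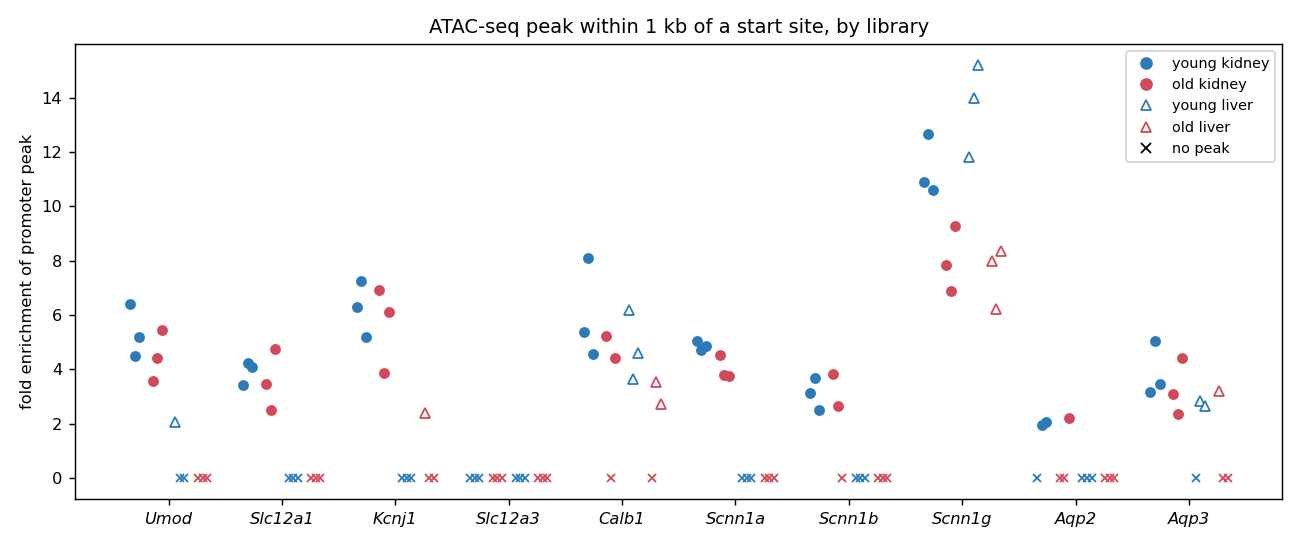
Fold enrichment (vertical axis) of the strongest ATAC-seq peak within 1 kb of a start of each gene, per library, for young and old kidney (filled circles) and liver (open triangles), with crosses at 0 for libraries without a peak. Scnn1g reaches 15.21 in young liver, where its RNA was at 0 counts, and Slc12a3 has crosses only.

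Scnn1a, the member with RNA in liver, had no promoter peak in any of the 6 liver libraries. It had a peak within the gene, with its summit 10464 to 10523 bp after the first start, in all 12 libraries. Its fold enrichment was 8.02, 9.01 and 7.48 in young kidney, 6.06, 4.83 and 5.24 in old kidney, 5.05, 7.0 and 5.79 in young liver and 5.76, 5.66 and 3.94 in old liver. In kidney the old libraries were all below the young, and in liver the ages overlapped. This peak was picked after the peaks along the gene were seen, and no test was made of it.

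**Figure D5:**
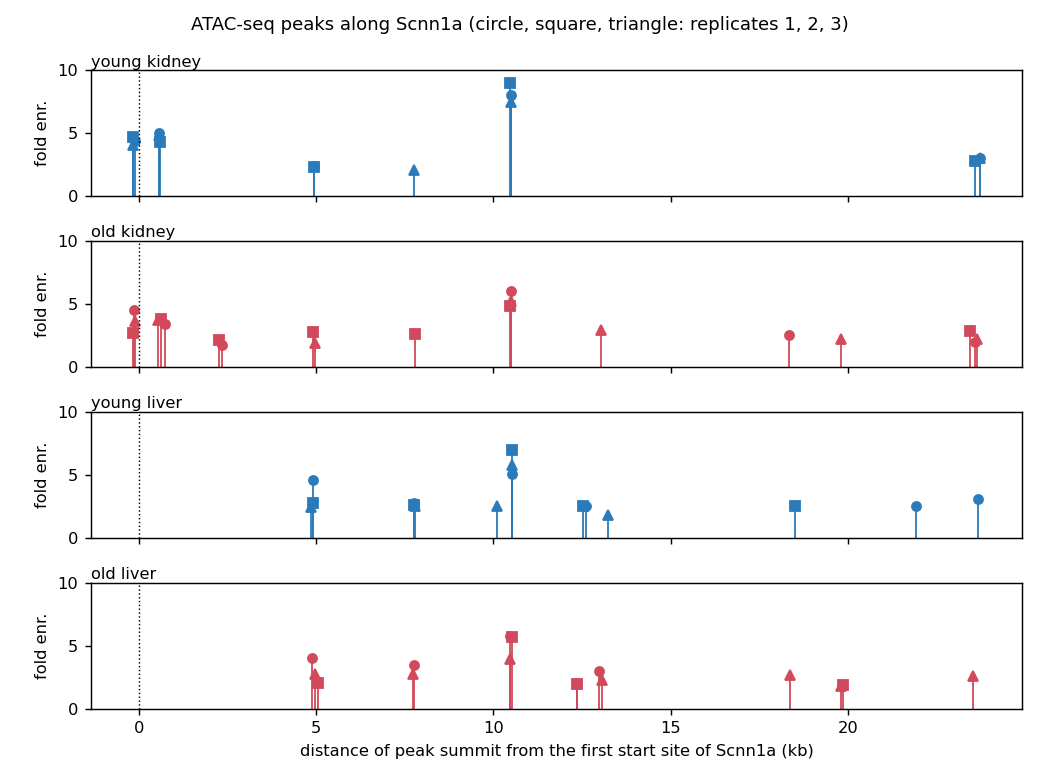
ATAC-seq peaks along Scnn1a, by distance of the summit from the first start site in kb (horizontal axis) and fold enrichment (vertical axis), with a panel for each group and a symbol for each of 3 replicates. Peaks near 0 occur in kidney alone, and the peak between 10464 and 10523 bp occurs in all 12 libraries.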

How the data were processed

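Kidney and liver RNA-seq (32 libraries) and ATAC-seq (12 libraries) were analysed, and fibroblast libraries were not used. Per the labels and the study's methods, the authors trimmed RNA-seq reads (Trimmomatic 0.39), mapped these to mm10 (HISAT2 2.2.1) and ran HTSeq 0.12.4 in its unstranded mode; the deposited values are raw counts. Unstranded counting does not separate reads by strand, and 19.5% of the Umod exon bases overlap Gm44588, a gene that the count tables do not list. ATAC-seq reads were mapped by the authors with Bowtie2, freed of duplicates and passed to MACS2 library by library. The deposited lists hold each peak's fold enrichment, a ratio over the local background, with −log10 p and −log10 q values. No peak lay beyond a chromosome end of GRCm38, whose GENCODE vM21 starts and exons were used. The tallies of reads outside genes, of which reads in no gene were 5.7 to 19.1%, were left out of totals.

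Each comparison was fitted alone in edgeR 4.0.16 (R 4.3.3) with TMM scaling, filterByExpr at a minimum count of 10 and the two-sided quasi-likelihood test, and adjusted over all genes tested. Interactions were joint fits over 4 groups. Every member passed the filter in kidney, and Scnn1a alone in the comparisons within liver. The steps were tested on simulated data. Alternatives were DESeq2 1.42.0, RLE factors, other filters, the study's fold threshold, a block for the replicate number, and each library left out in turn. Libraries of a group differed by more than counting noise (chi-square per gene at least 7.78). Same-numbered young kidney and young liver libraries deviated together (r 0.14 to 0.55), as did those of 3C kidney and 3C liver (0.13 to 0.25), so those numbers may be pairs. The values given for the tissue comparison and the interactions come from fits without this pairing. The block for the replicate number was an alternative only. Those of old kidney and liver (-0.35 to 0.32) and of DMSO kidney and liver (0.02 to 0.16) did not in every pair. The block changed no call in the tissue comparison or the Scnn1a interactions. The members and gene lists were chosen with earlier results of these data known. Named were all 10 members, up to 2 genes called higher and 2 called lower with the smallest p in each list, and the 3 genes most like Umod, Slc12a3 and Aqp2 (log2 of CPM plus 0.5). The calcium genes Trpv5, Slc8a1, S100g, Atp2b1, Atp2b4 and Pvalb, and also Kcnj16 and Foxi1, fall outside this rule and were named after their values were seen.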

Additional observations from a re-analysis of the deposited data

Results flagged for a closer look

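In groups of 4 libraries, 7 values among the 48 groups examined lay far from the other 3 by Dixon's criterion. Chance alone meets it in about 1 in 20 groups of normally spread values. That rate does not hold for liver groups at or near 0 counts, where a single value above tied zeros is always flagged. In liver with 3C, replicate 4 had a Umod level of 4.02 CPM against 0 to 0.456 CPM in the others, a Slc12a1 level of 1.38 CPM against 0 to 0.101 CPM, and a Slc12a3 level of 0.659 CPM against 0 CPM. All 3 are genes of the kidney tubule in the same library. Scnn1a in liver with 3C was 85.4 CPM in replicate 1 against 55.4 to 56.9 CPM in the others. In young kidney, Calb1 was 939 CPM in replicate 2 against 690 to 693 CPM, and Scnn1b was 82.2 CPM in replicate 4 against 63.0 to 64.3 CPM. In old kidney, Scnn1a was 134 CPM in replicate 2, the library with the hepatocyte transcripts, against 164 to 169 CPM in the others.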

How the results depend on the processing

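Of the counts and interaction values that answer a comparison, 230 alternatives gave the same reading and 28 moved a count by over 1.5 times. With age in kidney, DESeq2 called 10.3% of all genes with an adjusted p higher and 8.06% lower, against 8.15% and 3.36% in edgeR. For the members, DESeq2 called 4 lower and the added fold threshold 1, against 2. Leaving out each library gave 1 to 3 called lower and 0 to 1 called higher. For the other distal nephron genes with age, 4 higher and 12 lower became 6 and 23 with DESeq2, 1 and 5 with the replicate block (5.82% and 1.47% of all genes), 1 and 1 with the fold threshold (5.68% and 0.407%), and 0 to 6 higher and 3 to 21 lower on leaving out each library. The shares of all genes moved from 8.15% to between 4.75% and 11.5% higher and from 3.36% to between 0.943% and 12.2% lower on leaving out each library. With 3C, DESeq2 called 4 of these genes higher against 0 (0.439% of all genes against 0%). The cause of these changes was not tested. Same-numbered kidney libraries of the 2 ages did not deviate together in every pair (r -0.35 to 0.36), nor did those of DMSO and 3C (-0.09 to -0.00), so the replicate block has no basis in the design there, and it left 2 members called lower with age and 0 with 3C, and the Scnn1a interactions were -0.36 and 0.12 with the block.

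Signs of the 3C differences near 0 turned on leaving out a library, with log2 fold changes of -0.09 to 0.09 for Slc12a1, -0.00 to 0.03 for Kcnj1, -0.01 to 0.15 for Slc12a3, -0.12 to 0.08 for Scnn1g and -0.21 to 0.10 for Aqp3. For promoter peaks, leaving out each library gave 2 to 4 genes lower in every old kidney library, and in liver 1 to 2 genes with a peak in every library and 1 to 2 lower in every old library. The shares of all genes under these leave-outs were not computed. Groups separate more easily with fewer libraries, so these counts cannot be read as results about the members. With same-numbered ATAC-seq libraries set as pairs, as in a replicate block chosen after seeing the data, 2 genes in kidney and 1 in liver were lower in the old library of every pair and 0 were higher, and 3 pairs cannot give an exact p under 0.25. The share of all genes that meet this looser rule was not computed, so these paired counts cannot be read as results about the members either. Peaks were read without read depth, which the peak lists do not hold.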
